A study of Mus musculus with 44 samples.

Results

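Glucocorticoid hormones reach every tissue through the blood and act through an intracellular receptor that binds DNA when the hormone is bound. In mice their release by the adrenal gland follows the day, with a high around the start of the dark phase, when the animals become active. Genes that the receptor induces directly are therefore widely used as a readout of hormone exposure in a tissue, the kidney among them. BMAL1, the product of Arntl, is a transcription factor without which the molecular clock in cells does not run.

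In mouse kidney, 10 named genes of this hormone pathway were followed: the receptor gene Nr3c1, the hormone-activating enzyme Hsd11b1, the receptor co-chaperone Fkbp5, and 7 genes known to respond to the hormone, Tsc22d3, Zbtb16, Klf9, Cebpd, Errfi1, Mt1 and Mt2. They were chosen by name, as 10 of 24733 genes with any value, and all 10 reached a mean abundance of 1 TPM (an abundance per transcript length and per library total) over the libraries, as 12874 genes did. Polyadenylated RNA came from kidneys of 129SV mice at post-natal 8-12 weeks, all under night-restricted feeding, so that food was given in the dark phase to both genotypes. The 2 genotypes were wild type (WT) and Bmal knockout (KO, written Bmal -/- in the design), and each was sampled at zeitgeber times ZT0, ZT4, ZT8, ZT12, ZT16 and ZT20, in hours of the light cycle. Each of the 12 groups had 2 libraries, A and B, 24 in all. The labels do not say whether A and B came from separate animals, so p-values measure the spread between these libraries. The question put to these genes was whether a rhythm of a systemic hormone can still be seen in kidneys of KO mice. Hormone itself was not measured.

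Before the genes, the libraries. Arntl, the targeted gene, ranged from 0.295 to 12.9 TPM over the day in WT and from 4.19 to 6.28 TPM in KO. Its RNA was present in KO, and whether the measured transcripts lie outside the deleted part was not examined, so the level alone does not check the label. Its daily rhythm separated the genotypes, with an adjusted p of 1.04e-09 for the difference. The library labelled KO ZT4 A went against its label in other clock genes. Its Nr1d1, a repressor of the clock, was at 23.9 TPM, where the other 11 KO libraries lay between 1.23 and 3.46 TPM and the WT libraries at ZT4 at 22.0 and 33.0 TPM. Its Cry1 was at 1.03 TPM, inside the WT range of 0.551 to 6.64 TPM and below the 11.5 to 17.8 TPM of the other KO libraries. The library KO ZT12 A stood apart in Y-linked transcripts, with Ddx3y at 0.0990 TPM against 12.6 to 17.5 TPM in the other KO libraries and 11.7 to 15.7 TPM in WT. Main results that either library touches are given with and without it.

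The tissue was kidney by its markers, whose summed level was 34460 to 44410 TPM in WT and 14170 to 39490 TPM in KO, most of it from the single gene Kap. Adrenal tissue lies beside the kidney and makes the hormone, yet 7 of its 8 markers stayed under 1 TPM in every library and their sum reached 1.21 TPM in WT and 1.65 TPM in KO. Leukocyte markers summed to 30.8 to 90.4 TPM in WT and 34.6 to 47.3 TPM in KO. Adipocyte markers summed to 0.363 to 33.0 TPM in WT and 0.323 to 36.9 TPM in KO, and were highest in KO ZT12 A. Mitochondrially encoded genes held 40.5% ± 1.31 of TPM in WT and 37.6% ± 1.97 in KO (SD, n = 12 libraries each). In bulk tissue, fewer cells of a type and less RNA per cell cannot be told apart.

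In WT, 3 of the 10 genes had a 24-hour rhythm: Tsc22d3, which was high in the dark, and the metallothioneins Mt1 and Mt2, which were high late in the light phase. Over all genes tested, 13.7% passed the same test. In KO, 1 of the 10 passed, Errfi1, with its fitted peak just before dark, against 3.64% of all genes. None of the 3 genes rhythmic in WT passed in KO, but for none of the 10 was the difference in rhythm between genotypes itself past the threshold, against 0.629% of all genes. At an unadjusted p under 0.05, 2 of the 10 differed in rhythm, Mt2 and Errfi1, as did 1758 of 12874 genes. By the same rule 3 of the 10 had a KO rhythm, Errfi1, Hsd11b1 and Tsc22d3, as did 2711 genes. Without the library labelled KO ZT4 A, the unadjusted p for KO rhythm was 0.000205 for Errfi1, 0.115 for Hsd11b1 and 0.28 for Tsc22d3. The unadjusted p of Tsc22d3 for the difference in rhythm was then 0.00444. The daily level differed for 5 of the 10, with 60.9% of all genes called. Of these, 2 were higher in KO (Mt1 and Tsc22d3, against 50.9% of all genes) and 3 lower (Hsd11b1, Fkbp5 and Errfi1, against 10% of all genes). A 24-hour rhythm was fitted as a cosine curve to log2(TPM + 0.1) in limma, with Benjamini-Hochberg adjustment over all 12874 genes and a threshold of 0.05. The size of a rhythm is given below as peak-to-trough, the distance on that log2 scale from the bottom to the top of the fitted curve. The 95% intervals of its genotype difference are not adjusted over genes and compare size alone. The test of the difference in rhythm also takes in the time of the peak. These intervals are symmetric approximations and are less reliable where a rhythm is weak.

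Without the library labelled KO ZT4 A and KO ZT12 A, the counts were 3 rhythmic in WT, 1 in KO, none different in rhythm and 5 different in level, beside 2559, 611, 85 and 7889 of all genes. The values in the rest of this paragraph are with all 24 libraries. Across the 10 genes the median peak-to-trough was 0.68 in WT and 0.52 in KO, beside 0.25 and 0.21 over all genes. These medians were not redone without the 2 libraries. Over the whole table the median gene was 0.15 higher in KO on the log2 scale. With each library rescaled by median of ratios, that median was -0.00194 and the calls over all genes moved from 6555 higher and 1289 lower to 2761 higher and 2913 lower. The rescaled values of the 10 genes are therefore given beside the level differences. On the rescaled values 1 of the 10 was higher in KO and 5 were lower.

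**Figure D1:**
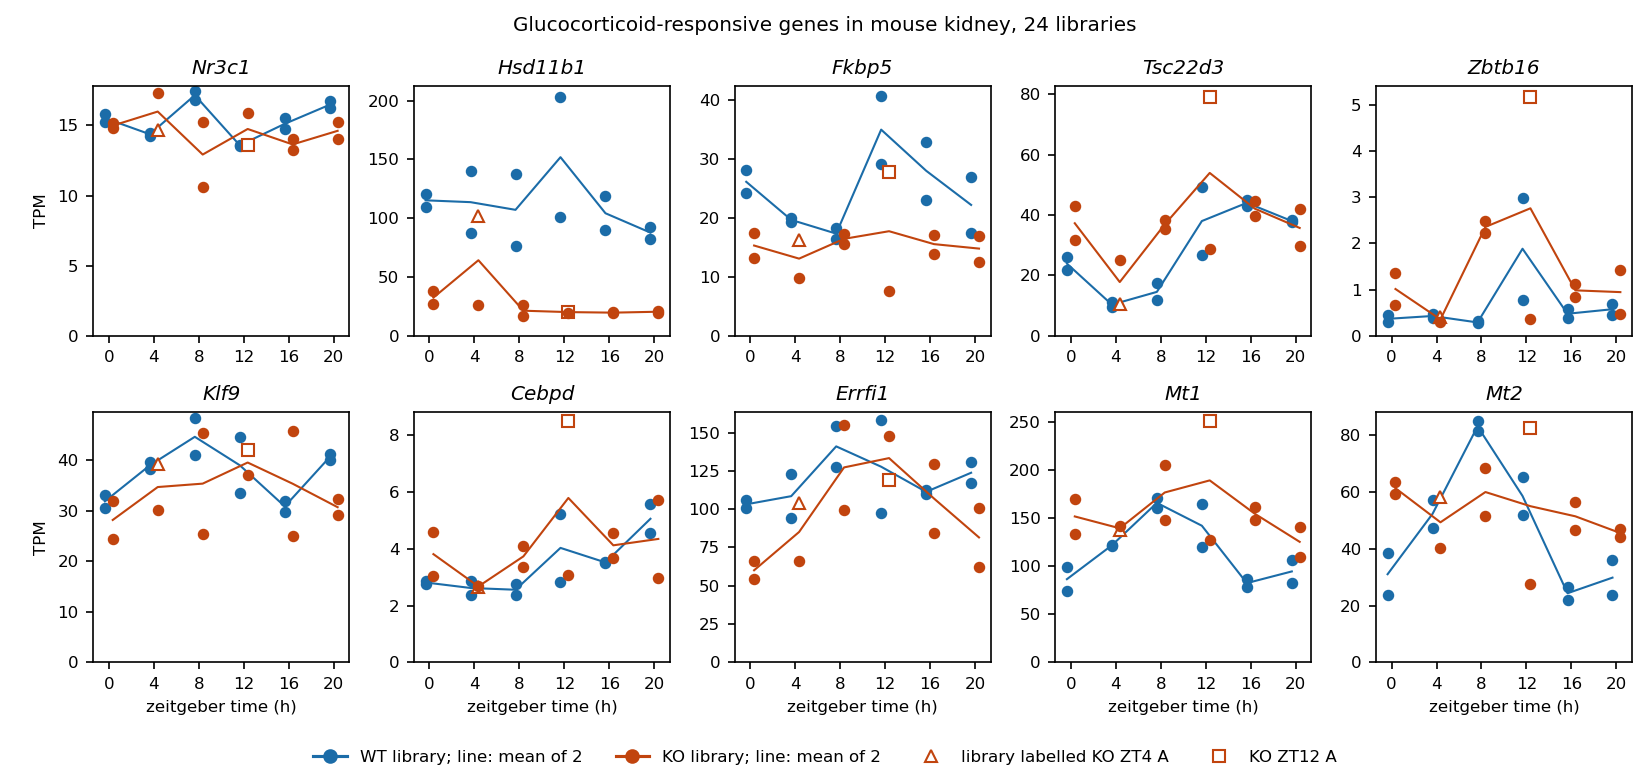
Expression of the 10 genes in TPM (vertical axes, starting at 0) by zeitgeber time in hours (horizontal axes) in WT (blue) and KO (orange) kidneys, with 1 point per library and lines through the mean of the 2 libraries at each time. Open symbols mark the library labelled KO ZT4 A (triangle), which lies with WT for Hsd11b1 at 102 TPM, and KO ZT12 A (square), which holds the highest KO value of 6 genes.

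The receptor came first. Nr3c1 (ENSMUSG00000024431, minus strand of chromosome 18, 39410545 to 39519421 in GRCm38) encodes the glucocorticoid receptor. It ranged from 13.5 TPM through a median of 15.4 TPM to 17.5 TPM in WT, and from 10.6 TPM through 14.7 TPM to 17.3 TPM in KO. The genotypes overlapped over nearly their whole range, and the lowest value was KO ZT8 A. Peak-to-trough was 0.08 in WT and 0.16 in KO, with an SE of 0.12 for each. The level difference was -0.09 on the log2 scale (SE 0.06, adjusted p = 0.226), and -0.24 (SE 0.06, adjusted p = 0.00265) on the rescaled values. One transcript, Nr3c1-204, held 79.0% of its TPM. No rhythm of the receptor messenger was detected in either genotype, and the genotype difference in peak-to-trough had a 95% interval of -0.29 to 0.44.

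Hsd11b1 (ENSMUSG00000016194, minus strand of chromosome 1, 193221634 to 193264075) encodes the enzyme that regenerates active hormone from its inert keto form inside cells. It had the largest level difference of the 10 genes. In WT it was at 110 and 121 TPM at ZT0 (libraries A and B), 87.5 and 140 TPM at ZT4, 76.5 and 138 TPM at ZT8, 101 and 203 TPM at ZT12, 119 and 89.7 TPM at ZT16, and 82.8 and 92.7 TPM at ZT20. In KO it was at 38.0 and 27.1 TPM at ZT0, 102 and 26.3 TPM at ZT4, 16.9 and 25.9 TPM at ZT8, 20.7 and 19.7 TPM at ZT12, 19.5 and 19.96 TPM at ZT16, and 19.6 and 21.5 TPM at ZT20. The groups overlapped through 1 library alone, the one labelled KO ZT4 A at 102 TPM. The other 11 KO libraries, 16.9 to 38.0 TPM, all lay below the lowest WT library at 76.5 TPM.

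Hsd11b1 was lower in KO by a log2 difference of -2.09 (SE 0.22, adjusted p = 7.43e-07, lower at 6 of 6 times). Without the library labelled KO ZT4 A the difference was -2.26 (SE 0.14, adjusted p = 7.49e-10). On the rescaled values it was -2.24. Its fitted rhythm in KO, 1.22 (SE 0.41, adjusted p = 0.169), fell short of the threshold and was 0.64 (SE 0.29, adjusted p = 0.357) without that library. In WT the peak-to-trough was 0.32 (SE 0.41).

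The lower level was not even over the transcripts of Hsd11b1. Hsd11b1-205, which starts farthest upstream at position 193264075, averaged 49.3 ± 7.66 TPM in WT and 20.8 ± 9.79 TPM in KO (SD, n = 12). Hsd11b1-203, which starts at 193241598, averaged 38.9 ± 19.0 TPM in WT and 4.98 ± 9.52 TPM in KO. Of the KO mean of Hsd11b1-203, most came from the library labelled KO ZT4 A, at 35.1 TPM, while the other KO libraries lay between 0.886 and 4.39 TPM. Hsd11b1-202, starting at 193243561, went from 19.5 ± 10.9 TPM to 1.98 ± 4.28 TPM. In WT ZT12 B, the library with the highest gene total, Hsd11b1-203 was at 87.6 TPM and Hsd11b1-202 at 47.7 TPM, while Hsd11b1-205 at 57.6 TPM was within its range elsewhere. The share of the gene's TPM held by Hsd11b1-205 ranged from 28.4% to 86.1% over the libraries. How reads shared by these transcripts were divided was set by the authors' quantification, so transcript values are less certain than the gene's sum.

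**Figure D2:**
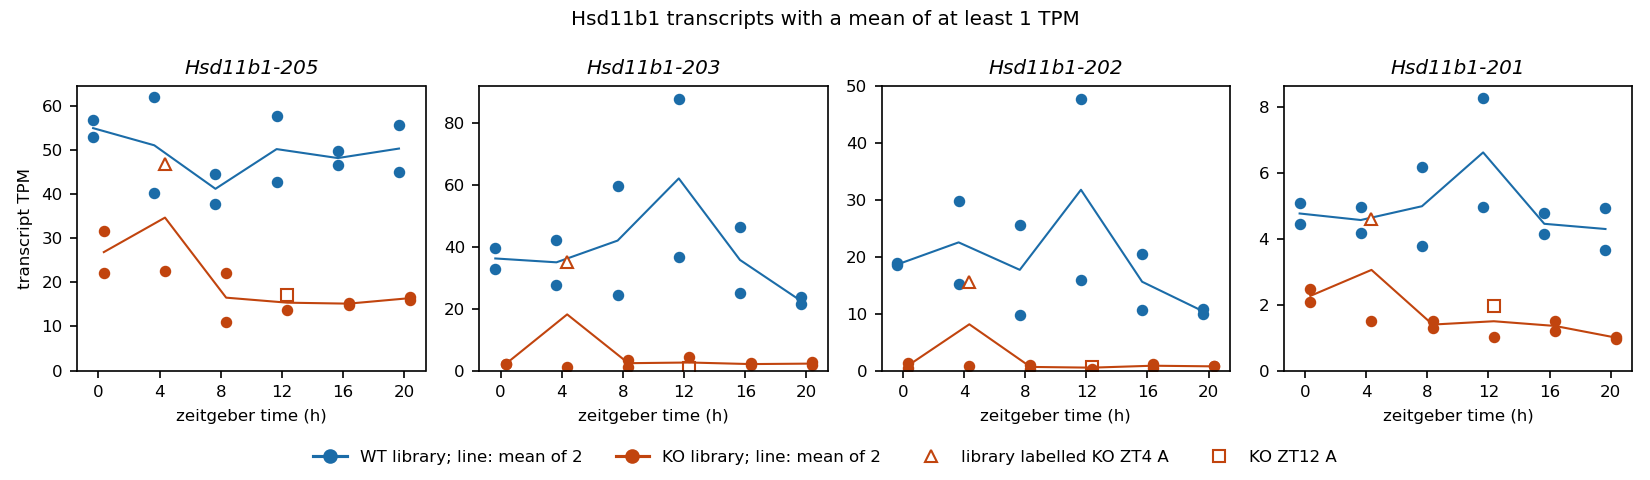
Hsd11b1 transcripts with a mean of at least 1 TPM, in transcript TPM (vertical axes from 0, each with its own scale) by zeitgeber time in hours, with 1 point per library, lines through the mean of the 2 libraries, WT in blue and KO in orange. Hsd11b1-203 and Hsd11b1-202 are near 0 in the KO libraries except the one labelled KO ZT4 A (open triangle), and Hsd11b1-205 keeps an average of 20.8 TPM in KO.

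Odc1 and Kap, other genes expressed in the kidney, were also lower on average in KO. Odc1, the first enzyme of polyamine synthesis, had the most similar profile of all genes outside the 10 (Pearson r = 0.969 over 24 libraries that share the genotype groups). It lay between 282 and 554 TPM in WT, at 337 TPM in the library labelled KO ZT4 A and between 81.5 and 153 TPM in the other KO libraries. Kap, a proximal tubule gene known for its response to androgens, lay between 30915 and 40646 TPM in WT, at 35748 TPM in the library labelled KO ZT4 A and between 10479 and 31169 TPM in the other KO libraries. In KO ZT8 A, Kap was at 31169 TPM, above the lowest WT library, while Hsd11b1 was at its lowest of all, 16.9 TPM. The part of Odc1 and Kap in the Hsd11b1 result was not tested. The sum of adipocyte markers did not separate the genotypes, as given above.

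Hsd11b2 and H6pd act beside Hsd11b1. Hsd11b2 inactivates the hormone in the collecting duct, and it was higher in KO by 0.41 on the log2 scale (SE 0.08, adjusted p = 0.00028), with means of 65.3 ± 10.8 TPM in WT and 86.2 ± 11.2 TPM in KO (SD, n = 12). On the rescaled values the difference was 0.26 (adjusted p = 0.0102). Aqp2, the water channel of the collecting duct, was also higher in KO, by 0.61 (SE 0.14, adjusted p = 0.00117) and by 0.45 on the rescaled values (adjusted p = 0.00972). The part of Aqp2 in the Hsd11b2 result was not tested. The rhythm of Hsd11b2 passed in WT (peak-to-trough 0.57, adjusted p = 0.00902) and not in KO (0.29, adjusted p = 0.302). Tested between genotypes, its rhythm gave an adjusted p of 0.0964 with all libraries, 0.0444 without the library labelled KO ZT4 A and 0.0562 without that library and KO ZT12 A. H6pd, which supplies the cofactor of Hsd11b1, was lower in KO by -0.26 on the log2 scale (adjusted p = 0.00112) and by -0.42 on the rescaled values (adjusted p = 1.25e-05). The mineralocorticoid receptor gene Nr3c2, whose product also binds glucocorticoids, was higher in KO, with a mean of 4.05 ± 0.510 TPM against 3.06 ± 0.395 TPM in WT. Its log2 difference was 0.39 (SE 0.07, adjusted p = 0.00011), and 0.24 on the rescaled values (adjusted p = 0.00527).

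Fkbp5 (ENSMUSG00000024222, minus strand of chromosome 17, 28399094 to 28517527) encodes a co-chaperone that lowers the receptor's affinity for hormone and is itself induced by it. In WT it was at 28.0 and 24.2 TPM at ZT0, 20.03 and 19.3 TPM at ZT4, 16.4 and 18.3 TPM at ZT8, 40.7 and 29.2 TPM at ZT12, 32.9 and 23.1 TPM at ZT16, and 26.9 and 17.5 TPM at ZT20. In KO it was at 13.2 and 17.5 TPM at ZT0, 16.3 and 9.89 TPM at ZT4, 17.3 and 15.6 TPM at ZT8, 27.8 and 7.62 TPM at ZT12, 13.9 and 17.2 TPM at ZT16, and 12.6 and 16.99 TPM at ZT20. The highest WT value was WT ZT12 A, followed by WT ZT16 A, and the highest KO value was KO ZT12 A, whose partner KO ZT12 B was the lowest of all. Apart from KO ZT12 A, every KO library was at or below 17.46 TPM, and 1 of the 12 WT libraries, WT ZT8 A at 16.4 TPM, lay under that level.

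Fkbp5 was lower in KO by -0.68 on the log2 scale (SE 0.17, adjusted p = 0.00247, lower at 6 of 6 times), by -0.76 without KO ZT12 A (adjusted p = 0.000881) and by -0.84 on the rescaled values. A rhythm was not detected in either genotype: peak-to-trough was 0.57 (SE 0.35, adjusted p = 0.487) in WT and 0.13 (SE 0.35, adjusted p = 0.971) in KO. The difference between these, -0.44, had a 95% interval of -1.47 to 0.60. Fkbp5-201 held 94.0% of the gene's TPM.

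The promoter of Fkbp5 is shown because it was the only window among those of the 10 genes to hold an E-box, the sequence bound by BMAL1 with its partner CLOCK. Promoters are windows of 300 bases around RefSeq start sites (GRCm38.p6), from 250 before to 50 after, and 7 of the 10 genes are covered, with 10 windows. Zbtb16, Cebpd and Nr3c1 were not matched. The E-box CACGTG is in capitals, at position -169 from the start, in the minus strand window chr17:28486100-28486399.
Fkbp5 promoter: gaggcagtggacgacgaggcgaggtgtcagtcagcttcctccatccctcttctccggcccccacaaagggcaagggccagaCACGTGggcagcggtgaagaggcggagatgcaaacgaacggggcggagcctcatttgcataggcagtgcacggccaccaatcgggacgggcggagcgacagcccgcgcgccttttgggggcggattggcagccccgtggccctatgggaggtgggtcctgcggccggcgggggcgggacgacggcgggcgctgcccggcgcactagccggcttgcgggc

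Of all 32817 promoter windows, 7.15% held CACGTG on either strand. The full receptor element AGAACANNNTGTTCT was found in none of the 10 windows and in 0.00914% of all windows. Its half-site AGAACA was found in 1 of the 10 windows, at position -185 from the upstream start of Tsc22d3 (140600522), and in 19.0% of all windows. The D-box TTATGTAA or TTATGCAA was found in none of the 10 and in 1.66% of all windows. Every motif was searched on both strands, and each match of the half-site would be counted again inside a full element. These are matches of letters and no record of binding, and no match says only that these letters are not in the window.

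Tsc22d3 (ENSMUSG00000031431, minus strand of chromosome X, 140539528 to 140600659) encodes GILZ, a protein that mediates anti-inflammatory effects of the hormone and that regulates sodium transport in the kidney. It had the largest rhythm of the 10 genes in WT. WT values were 21.7 and 26.1 TPM at ZT0, 11.1 and 9.60 TPM at ZT4, 11.7 and 17.4 TPM at ZT8, 49.2 and 26.8 TPM at ZT12, 45.0 and 43.1 TPM at ZT16, and 38.3 and 37.8 TPM at ZT20. KO values were 31.6 and 42.9 TPM at ZT0, 10.4 and 25.2 TPM at ZT4, 35.3 and 38.5 TPM at ZT8, 79.2 and 28.6 TPM at ZT12, 44.6 and 39.6 TPM at ZT16, and 41.9 and 29.6 TPM at ZT20. At ZT0 and ZT8 both KO libraries were above both WT libraries, while at the other times the genotypes overlapped. The lowest KO library was the one labelled KO ZT4 A and the highest was KO ZT12 A, so the 2 libraries that stand apart also set the KO extremes of this gene.

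The WT rhythm of Tsc22d3 had a peak-to-trough of 2.11 (SE 0.39, adjusted p = 0.00421) and a fitted peak at 16.8 h (SE 0.71 h). In KO the peak-to-trough was 1.05 (SE 0.39, adjusted p = 0.237) with a peak at 15.1 h. Without the library labelled KO ZT4 A it was 0.55 (SE 0.33, adjusted p = 0.553), without KO ZT12 A it was 0.83 (adjusted p = 0.333), and without both it was 0.30 (SE 0.27, adjusted p = 0.732). For the difference in rhythm the adjusted p was 0.473 with all libraries, 0.144 without the library labelled KO ZT4 A, and 0.0566 without both, so it stayed short of the threshold in each. The difference in peak-to-trough was -1.07 with a 95% interval of -2.23 to 0.10.

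The level of Tsc22d3 was higher in KO by 0.48 on the log2 scale (SE 0.19, adjusted p = 0.0418, higher at 4 of 6 times). That call was lost on the rescaled values, at 0.32 (adjusted p = 0.164), and without KO ZT12 A, at 0.39 (adjusted p = 0.0805). The call held without the library labelled KO ZT4 A, at 0.54 (adjusted p = 0.023), and without both libraries, at 0.46 (adjusted p = 0.045). Of the 24 fits that left out 1 library, it was lost in 13 (adjusted p = 0.0524 to 0.081): without WT ZT0 A or B, WT ZT4 A or B, WT ZT8 A or B, WT ZT12 B, KO ZT0 B, KO ZT4 B, KO ZT8 A or B, KO ZT12 A, or KO ZT20 A. The short transcript Tsc22d3-201 held 77.0% of the gene's TPM and went from 6.11 TPM at ZT4 to 36.3 TPM at ZT16 in WT (means of 2). The long transcript Tsc22d3-203, which starts at 140600659, went from 1.32 TPM at ZT4 to 4.04 TPM at ZT20. The lowest WT mean of these 2 forms was at ZT4, while that of Tsc22d3-202, with 11.7% of the gene's TPM, was at ZT0, at 2.24 TPM.

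Zbtb16 (ENSMUSG00000066687, minus strand of chromosome 9, 48654297 to 48836222) encodes the transcriptional repressor PLZF, one of the most hormone-inducible genes in many cells. It was the least abundant of the 10, at a mean of 1.04 TPM, and was measured only just above the limit set for testing. It ranged from 0.268 TPM through a median of 0.452 TPM to 2.99 TPM in WT and from 0.305 TPM through 0.985 TPM to 5.16 TPM in KO. Both maxima were the A libraries of ZT12, whose B partners were at 0.777 TPM in WT and 0.358 TPM in KO. At ZT8 the groups did not overlap, with 0.268 and 0.313 TPM in WT and 2.49 and 2.23 TPM in KO. The level difference was 0.83 on the log2 scale (SE 0.36, adjusted p = 0.0563), 0.67 (adjusted p = 0.112) without KO ZT12 A, and 0.69 (adjusted p = 0.13) on the rescaled values. The level passed the threshold when WT ZT4 A, WT ZT12 A, KO ZT4 B, KO ZT12 B or KO ZT20 B was left out (adjusted p = 0.00354 to 0.048). Peak-to-trough was 1.13 in WT and 1.25 in KO (SE 0.76 each), neither past the threshold, and the KO value was 0.53 (SE 0.77) without KO ZT12 A.

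Klf9 (ENSMUSG00000033863, plus strand of chromosome 19, 23141226 to 23168134) encodes a zinc finger repressor that the hormone induces in many tissues. It ranged from 29.8 TPM through 39.0 TPM to 48.2 TPM in WT and from 24.4 TPM through 32.1 TPM to 45.7 TPM in KO, with broad overlap. Its level difference was -0.17 on the log2 scale (SE 0.11, adjusted p = 0.174), and -0.32 (SE 0.11, adjusted p = 0.0195) on the rescaled values. Without KO ZT16 B it was -0.24 (adjusted p = 0.0267). Peak-to-trough was 0.29 in WT and 0.38 in KO, with an SE of 0.21 for each. In KO the libraries of one time differed widely, as at ZT8 with 25.3 and 45.4 TPM and at ZT16 with 24.9 and 45.7 TPM.

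Cebpd (ENSMUSG00000071637, plus strand of chromosome 16, 15887286 to 15891031) encodes a transcription factor of inflammation and fat cell formation. It ranged from 2.37 TPM through 2.87 TPM to 5.57 TPM in WT and from 2.67 TPM through 3.53 TPM to 8.50 TPM in KO. In WT its 2 ZT20 libraries, at 5.57 and 4.55 TPM, and WT ZT12 A, at 5.22 TPM, were the highest. Peak-to-trough was 0.80 (SE 0.31, adjusted p = 0.181) with a fitted peak at 17.4 h in WT and 0.62 (SE 0.31, adjusted p = 0.418) at 14.9 h in KO. The level difference was 0.22 on the log2 scale (SE 0.15, adjusted p = 0.221), 0.12 (adjusted p = 0.433) without KO ZT12 A, which held the highest value, and 0.07 (adjusted p = 0.729) on the rescaled values.

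Errfi1 (ENSMUSG00000028967, plus strand of chromosome 4, 150853919 to 150868892) encodes MIG6, an inhibitor of the epidermal growth factor receptor. It was the single gene of the 10 with a rhythm in KO. KO values were 54.1 and 66.0 TPM at ZT0, 104 and 66.4 TPM at ZT4, 99.4 and 155 TPM at ZT8, 119 and 148 TPM at ZT12, 84.1 and 130 TPM at ZT16, and 62.1 and 101 TPM at ZT20. WT values were 101 and 106 TPM at ZT0, 123 and 94.0 TPM at ZT4, 127 and 154 TPM at ZT8, 158 and 97.4 TPM at ZT12, 110 and 113 TPM at ZT16, and 131 and 117 TPM at ZT20. Both KO libraries at ZT0 were below every WT library, and those of ZT8 and ZT12 were inside the WT range.

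The KO rhythm of Errfi1 had a peak-to-trough of 1.11 (SE 0.23, adjusted p = 0.0218) and a fitted peak at 11.4 h (SE 0.78 h), and in WT it was 0.27 (SE 0.23, adjusted p = 0.678) with a peak at 10.9 h. The difference in peak-to-trough was 0.84, with an unadjusted 95% interval of 0.18 to 1.50. The test of the difference in rhythm gave an adjusted p of 0.365. The KO call was lost when the 12 KO libraries were fitted alone (adjusted p = 0.159) and when KO ZT0 A, KO ZT0 B or KO ZT12 B was left out (adjusted p = 0.0515, 0.0514 and 0.0608). It held without the library labelled KO ZT4 A (adjusted p = 0.019) and without KO ZT12 A (adjusted p = 0.0269). The level of Errfi1 was lower in KO by -0.33 on the log2 scale (SE 0.13, adjusted p = 0.0333, lower at 5 of 6 times) and by -0.48 on the rescaled values (adjusted p = 0.00581). Of the 24 fits that left out 1 library, 11 lost the level call (adjusted p = 0.0507 to 0.0647): those without WT ZT0 A or B, WT ZT4 A, WT ZT12 A, WT ZT20 A, KO ZT0 A or B, KO ZT4 B, KO ZT8 A, KO ZT16 A, or KO ZT20 A.

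Mt1 (ENSMUSG00000031765, chromosome 8, 94179082 to 94180327) and Mt2 (ENSMUSG00000031762, chromosome 8, 94172664 to 94173568) are neighbours on the plus strand and encode metallothioneins, small proteins that bind zinc and copper. Both respond to metals through the factor MTF1 and to glucocorticoids. Their RefSeq promoter windows are shown because the 2 genes ran together over the day in WT, with capitals for the core of the metal response element, TGCACNC or TGCGCNC on either strand. The Mt1 window is chr8:94178839-94179138 and the Mt2 window is chr8:94172368-94172667.
Mt1 promoter: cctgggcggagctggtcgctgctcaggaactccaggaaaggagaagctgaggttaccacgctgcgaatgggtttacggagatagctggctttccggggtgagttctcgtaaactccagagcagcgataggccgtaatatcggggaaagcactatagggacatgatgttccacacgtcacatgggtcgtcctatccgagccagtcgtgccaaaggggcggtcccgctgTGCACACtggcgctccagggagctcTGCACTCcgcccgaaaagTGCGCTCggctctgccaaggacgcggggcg
Mt2 promoter: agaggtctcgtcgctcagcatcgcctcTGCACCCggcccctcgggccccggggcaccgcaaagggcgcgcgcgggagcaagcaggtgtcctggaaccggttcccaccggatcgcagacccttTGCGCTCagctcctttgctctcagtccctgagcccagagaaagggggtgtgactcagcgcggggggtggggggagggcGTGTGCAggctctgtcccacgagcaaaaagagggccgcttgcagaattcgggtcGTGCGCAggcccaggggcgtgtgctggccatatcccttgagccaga

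The Mt1 window held 3 matches, beginning at positions -23, 3 and 21 from the start, and the Mt2 window held 4, beginning at positions -223, -128, -50 and 5 from the start. Of all windows 25.7% held at least 1, and among the other members' windows Hsd11b1 held 1.

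In WT, Mt2 was at 38.4 and 23.7 TPM at ZT0, 47.5 and 57.2 TPM at ZT4, 85.0 and 81.4 TPM at ZT8, 65.5 and 51.8 TPM at ZT12, 26.6 and 22.1 TPM at ZT16, and 23.7 and 36.0 TPM at ZT20. In KO it was at 63.5 and 59.3 TPM at ZT0, 58.3 and 40.4 TPM at ZT4, 68.6 and 51.5 TPM at ZT8, 82.5 and 27.6 TPM at ZT12, 46.5 and 56.4 TPM at ZT16, and 47.0 and 44.2 TPM at ZT20. At ZT0, ZT16 and ZT20 both KO libraries were above both WT libraries, and at ZT8 both were below. Mt2 had a WT peak-to-trough of 1.69 (SE 0.31, adjusted p = 0.00372) with a peak at 7.8 h, and 0.20 (SE 0.31, adjusted p = 0.916) in KO. The difference in peak-to-trough was -1.49, with an unadjusted 95% interval of -2.41 to -0.57. The test of the difference in rhythm gave an adjusted p of 0.176 with all libraries, 0.102 without KO ZT12 A and 0.11 without that library and the one labelled KO ZT4 A.

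In WT, Mt1 was at 99.2 and 73.8 TPM at ZT0, 121 and 122 TPM at ZT4, 171 and 161 TPM at ZT8, 165 and 120 TPM at ZT12, 86.7 and 78.1 TPM at ZT16, and 82.4 and 107 TPM at ZT20. In KO it was at 170 and 134 TPM at ZT0, 137 and 141 TPM at ZT4, 205 and 149 TPM at ZT8, 251 and 127 TPM at ZT12, 148 and 162 TPM at ZT16, and 141 and 110 TPM at ZT20. The KO libraries lay above the WT libraries at ZT0, ZT4, ZT16 and ZT20 and overlapped them at ZT8 and ZT12, where WT was highest. Mt1 had a WT peak-to-trough of 0.98 (SE 0.21, adjusted p = 0.0125) with a peak at 8.3 h, and 0.42 (SE 0.21, adjusted p = 0.427) in KO. The difference was -0.55, with a 95% interval of -1.18 to 0.08 and an adjusted p of 0.517 for the difference in rhythm.

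Mt1 was higher in KO by 0.46 on the log2 scale (SE 0.12, adjusted p = 0.00241, higher at 6 of 6 times), by 0.31 on the rescaled values (adjusted p = 0.0329) and by 0.41 without KO ZT12 A (adjusted p = 0.00477). Mt2 differed by 0.31 (SE 0.20, adjusted p = 0.186), by 0.16 on the rescaled values (adjusted p = 0.545) and by 0.44 without KO ZT12 B (adjusted p = 0.0305). Across the 12 libraries of a genotype, which share time points, Mt1 and Mt2 had a Pearson r of 0.978 in WT and 0.741 in KO. Tested with time as 6 levels and no curve, the WT call of Mt1 was lost (adjusted p = 0.101) and so was that of Mt2 (adjusted p = 0.0594), while Tsc22d3 kept its WT call. Mt1 and Mt2 are similar in sequence, and how reads that fit both were divided was not examined.

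**Figure D3:**
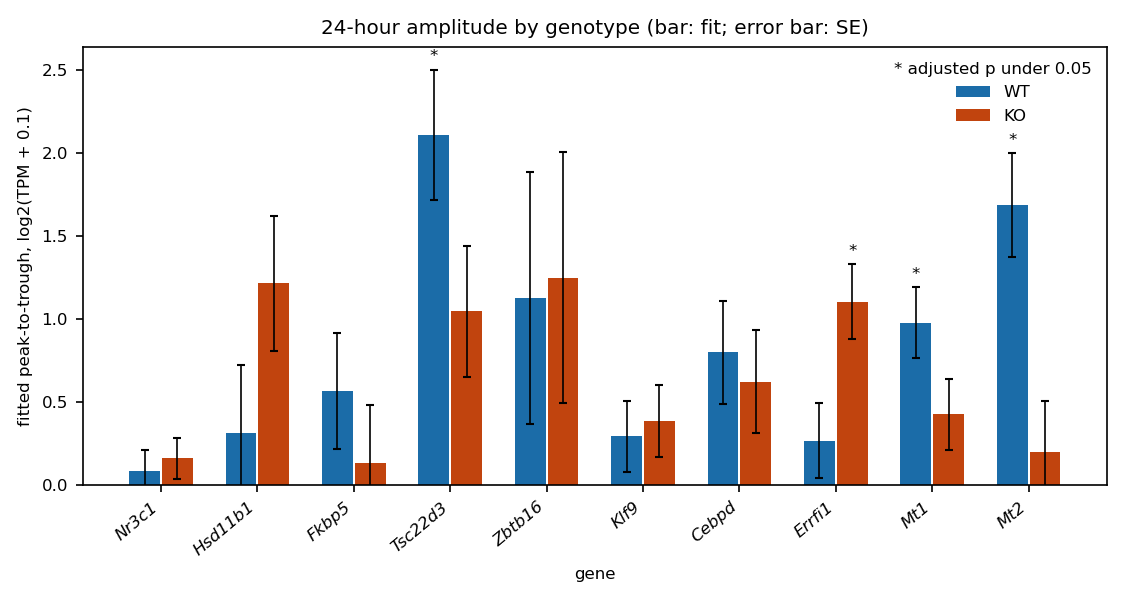
Fitted 24-hour peak-to-trough of the 10 genes on the log2(TPM + 0.1) scale (vertical axis, from 0) in WT (blue) and KO (orange), with standard errors as error bars and an asterisk at an adjusted p under 0.05. Tsc22d3, Mt1 and Mt2 carry the asterisk in WT and Errfi1 in KO.

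The fitted peak times of the genotypes were compared next. For 7 of the 10 the KO peak was within 3 h of the WT peak, as it was for 38.1% of all genes tested, including the many with no rhythm. The count was 6 of 10 without the library labelled KO ZT4 A (40.5% of all genes), when Zbtb16 moved outside, 6 of 10 without KO ZT12 A (42.6% of all genes), when Fkbp5 did with a KO peak at 23.05 h, and 5 of 10 without both (44% of all genes). Errfi1 differed by 0.48 h (SE 3.32 h), Fkbp5 by -1.65 h (SE 10.4 h), Tsc22d3 by -1.77 h (SE 1.61 h) and Mt1 by 1.83 h (SE 2.10 h), KO minus WT. The standard errors are wide wherever a rhythm was weak. With all libraries, Tsc22d3 was the only gene of the 10 with an unadjusted p under 0.05 for rhythm in both genotypes. Its unadjusted p for rhythm in KO was then 0.0499. It was 0.28 without the library labelled KO ZT4 A, 0.102 without KO ZT12 A and 0.549 without both. Among 18 tested genes of a list of other receptor targets, 12 peaked within 3 h, and among 6 clock comparators 1 did. Of all genes with an unadjusted p under 0.05 for rhythm in both genotypes, 858 of 1286 peaked within 3 h. By that same rule 6 of 7 other receptor targets did, and 0 of 1 clock comparator. The counts by this rule are with all libraries and were not redone without the 2 that stand apart.

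**Figure D4:**
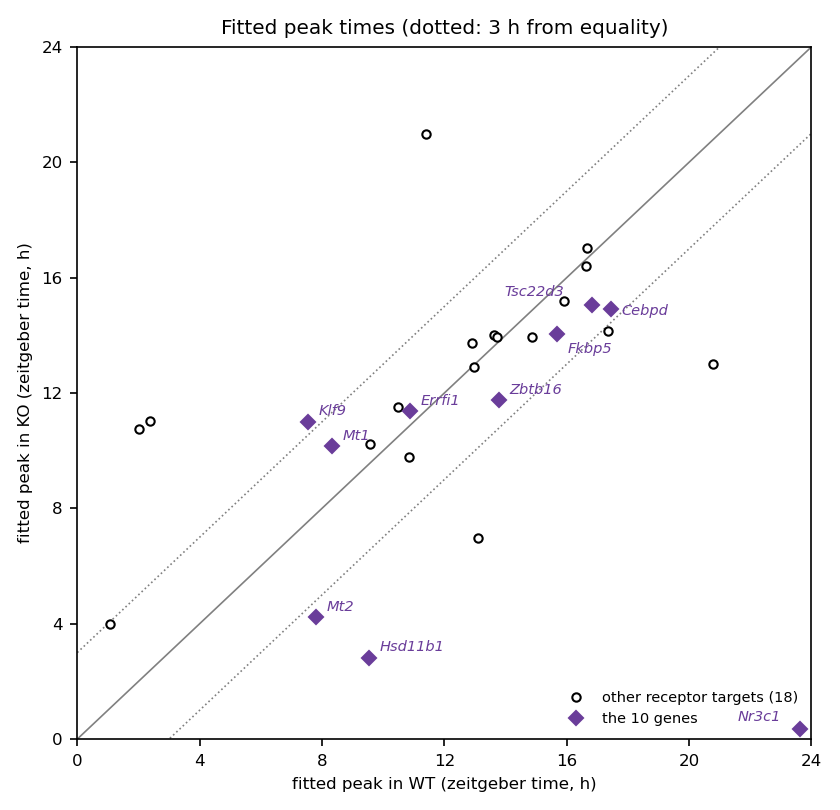
Fitted peak time in KO (vertical axis, zeitgeber hours) against that in WT (horizontal axis, zeitgeber hours) for the 10 genes (diamonds) and 18 other receptor targets (open circles), with the line of equality and dotted lines 3 h to each side. Nr3c1, at the lower right, is within 3 h across midnight of the cycle, and Klf9, Mt2 and Hsd11b1 are the 3 genes outside the lines.

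The pairs of libraries at ZT12 were unlike each other. In WT the A library was higher than B in 9 of the 10 genes at ZT12, and the pair differed by 1 or more on the log2 scale in 2 genes, Zbtb16 (1.82, A minus B) and Hsd11b1 (-1.01). In KO it was higher in 8 of the 10, by 1 or more in 5: Zbtb16 by 3.52, Fkbp5 by 1.85, Mt2 by 1.58, Tsc22d3 by 1.47 and Cebpd by 1.43. At the other 5 times the pairs of a gene differed by 1 or more in no case in WT and in 3 cases in KO. KO ZT12 A is the library with few Y-linked transcripts and the highest sum of adipocyte markers, and the part of either in these values was not tested. Ddx3y was at 11.7 TPM or more in every WT library. The A and B letters mark no shared animal or batch in the labels.

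Other genes of the pathway were taken from lists made by textbook role. Among the receptor's machinery of chaperones, co-regulators and hormone-handling proteins, 17 of 18 genes were tested. Serpina6, the plasma carrier of the hormone, was too low, at a mean of 0.470 TPM. It was at 10.6 TPM in KO ZT12 A and at 0.411 TPM or less in every other library. Of the 17 tested, 8 had a rhythm in WT and 3 in KO, where 13.7% and 3.64% of all genes did. The 3 were the co-chaperone Fkbp4 and the chaperones Hsp90aa1 and Hsp90ab1, all 3 rhythmic in both. Fkbp4 had a peak-to-trough of 0.81 in WT (adjusted p = 2.32e-05) and 0.58 in KO (adjusted p = 0.0034), with peaks at 21.4 h and 20.9 h. Hsp90aa1 had 1.38 in WT and 0.87 in KO (adjusted p = 0.0171), and Hsp90ab1 0.67 and 0.51 (adjusted p = 0.0406). Leaving out 1 library lost the KO call of Hsp90aa1 without KO ZT8 A or B (adjusted p up to 0.0534) and that of Hsp90ab1 in 12 of 24 fits (up to 0.108). The co-chaperone Ptges3 had 0.59 in WT (adjusted p = 0.00436) and 0.24 in KO (adjusted p = 0.388). With all libraries none of the 17 differed in rhythm past the threshold in limma, against 0.629% of all genes. Hsd11b2 did without the library labelled KO ZT4 A (adjusted p = 0.0444). At an unadjusted p under 0.05, 3 of the 17 differed with all libraries, as did 1758 of 12874 genes. By level, 5 were higher and 3 lower in KO, where 50.9% and 10% of all genes were. On the rescaled values 4 were higher and 6 lower, beside 2761 and 2913 of 12874 genes.

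Of 20 other receptor targets 18 were tested, and 5 had a rhythm in WT, 4 in KO and 1, Per1, in both. Over all genes 13.7% passed in WT and 3.64% in KO. Per1 is a clock gene that the receptor also induces directly. It was at 1.87 and 2.52 TPM at ZT0 in WT and at 15.7 and 7.55 TPM at ZT12, and at 2.82 and 3.22 TPM at ZT0 in KO and at 13.7 and 4.51 TPM at ZT12. Its peak-to-trough was 2.35 in WT (adjusted p = 0.00139) and 1.81 in KO (SE 0.39, adjusted p = 0.0279), with peaks at 13.6 h and 14.0 h. The KO call of Per1 was lost without the library labelled KO ZT4 A (adjusted p = 0.0637), without KO ZT12 A (adjusted p = 0.0632) and without both (adjusted p = 0.122), and also without KO ZT0 B or KO ZT4 B. Sgk1, a hormone-induced kinase that raises sodium uptake in the kidney, was at 236 TPM in KO ZT12 A against 25.9 to 116 TPM in the other KO libraries and 19.8 to 60.6 TPM in WT. Sgk1 was higher in KO by 0.91 on the log2 scale (adjusted p = 0.00134), by 0.75 (adjusted p = 0.000478) without KO ZT12 A, and by 0.76 (adjusted p = 0.00493) on the rescaled values.

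Pdk4 and Angptl4 are induced by the hormone and by fasting, the first a kinase that restrains glucose oxidation and the second an inhibitor of lipoprotein lipase. Pdk4 was at 33.9 and 28.8 TPM at ZT8 in KO and at 31.9 and 22.0 TPM at ZT12, against 6.75 and 6.01 TPM and 7.29 and 5.03 TPM in WT. At ZT0 it was lower, at 3.22 and 4.39 TPM in KO and 5.44 and 5.93 TPM in WT. Its KO peak-to-trough of 3.25 (SE 0.51, adjusted p = 0.00511) had a peak at 11.04 h, and 1 library of a later time, KO ZT16 B at 38.7 TPM, was its highest. Angptl4 had a KO peak-to-trough of 4.79 (SE 0.75, adjusted p = 0.00549) with a peak at 10.2 h, and 1.39 in WT (adjusted p = 0.397). Cebpb, a relative of Cebpd, had 0.79 in WT (adjusted p = 0.0717) and 0.46 in KO (adjusted p = 0.442). The KO rhythm calls of Pdk4 and Angptl4 were lost when the KO libraries were fitted alone (adjusted p = 0.0746 and 0.112) and with time as 6 levels (adjusted p = 0.0858 and 0.0876). Pdk4 was the 1 gene of the list whose rhythm differed past the threshold (adjusted p = 0.0411), as 0.629% of all genes did. That call was lost in 20 of 35 alternatives, among them the one without KO ZT12 A (adjusted p = 0.0737). By level 4 genes of the list were higher and 2 lower in KO, where 50.9% and 10% of all genes were. On the rescaled values 1 was higher and 6 were lower, beside 2761 and 2913 of 12874 genes.

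**Figure D5:**
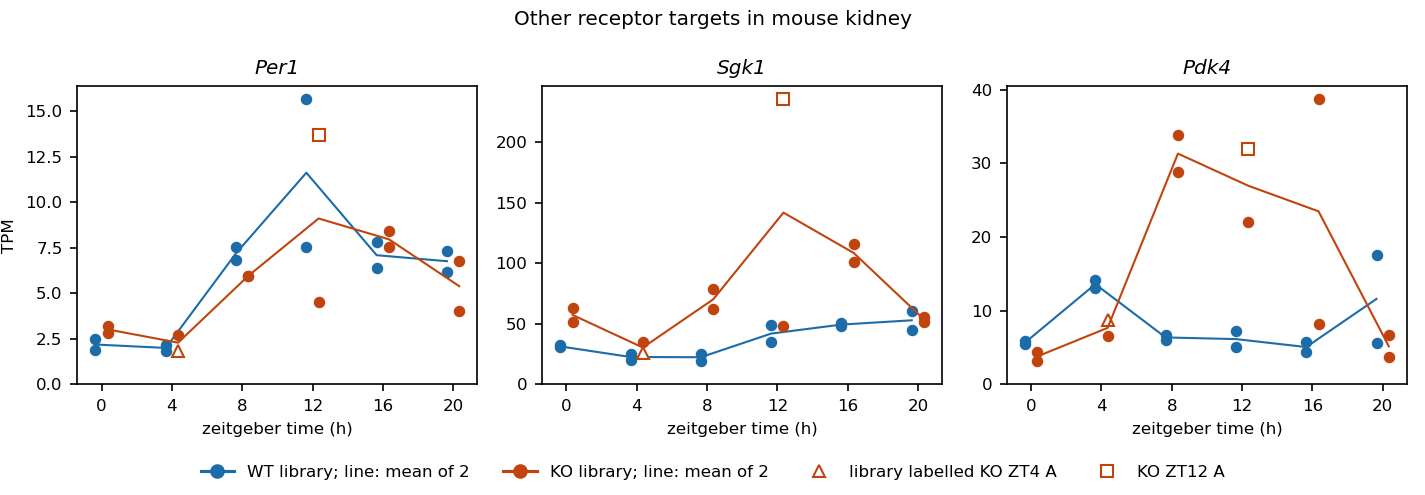
Per1, Sgk1 and Pdk4 in TPM (vertical axes from 0, each with its own scale) by zeitgeber time in hours, with 1 point per library and lines through the mean of the 2 libraries, WT in blue and KO in orange. Per1 is higher at ZT12 than at ZT4 in both genotypes, Sgk1 reaches 236 TPM in KO ZT12 A (open square), and Pdk4 is above WT at ZT8 and ZT12 in KO.

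Of 6 other genes of metal handling 5 were tested, with 1 rhythmic in WT and 1 in KO, against 13.7% and 3.64% of all genes. The zinc exporter Slc30a1, a target of MTF1, passed in WT with a peak-to-trough of 0.53 at 20.2 h (adjusted p = 0.00659), against the 7.8 h of Mt2. In KO it had 0.18 (adjusted p = 0.546). The zinc importer Slc39a10 passed in KO with 0.45 at 22.8 h (adjusted p = 0.0278), a call lost without KO ZT0 B, KO ZT8 A or KO ZT12 A (up to 0.0764). Slc39a14, another importer, was lower in KO by -0.30 on the log2 scale (adjusted p = 0.00113). Mt3, a metallothionein best known in brain, passed no test. All 6 clock comparators were rhythmic in WT and none in KO, with 5 of the 6 differing in rhythm, as 0.629% of all genes did. The other, Nr1d1, had an adjusted p of 0.0871 for the difference, and it passed at 9.28e-06 without the library labelled KO ZT4 A. Dbp, a direct target of BMAL1, was between 0.989 and 71.2 TPM in WT and between 2.30 and 5.12 TPM in KO.

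The genes most alike in profile to each of the 10 were found by Pearson r on log2(TPM + 0.1) over all 24 libraries, which differ by genotype and time, so that r carries both. For Tsc22d3 it was Ddit4, a stress-induced inhibitor of mTOR signalling on the list of receptor targets (r = 0.871), followed by Sgk1 (r = 0.847). For Klf9 it was Irs2, an adaptor of the insulin receptor on the same list (r = 0.721). Errfi1 was nearest to Cpt1a, the enzyme of mitochondrial fatty acid import (r = 0.80), and Cpt1a was rhythmic in WT (0.80, adjusted p = 0.00472) and in KO (0.88, adjusted p = 0.00933), with peaks at 9.5 h and 10.6 h. The sulfotransferase gene Sult1a1 was nearest to both Zbtb16 (r = 0.782) and Cebpd (r = 0.832). Nr3c1 was nearest to Ipo8 (r = 0.854), Fkbp5 to Cnbd2 (r = 0.878), Mt1 to Pdcd4 (r = 0.865) and Mt2 to Cdyl (r = 0.827).

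Among the 10 genes themselves, pairs were described within each genotype over 12 libraries, with no test. Tsc22d3 and Cebpd had r = 0.789 in WT and 0.748 in KO, and Fkbp5 and Zbtb16 had 0.717 and 0.728. Klf9 and Errfi1 had 0.618 and 0.636. Other pairs differed in sign between genotypes: Tsc22d3 and Mt2 had -0.574 in WT and 0.305 in KO, and Fkbp5 and Mt2 had -0.279 and 0.872. Nr3c1 had a negative r with Fkbp5 and with Zbtb16 in both genotypes, -0.581 and -0.549 in WT and -0.482 and -0.611 in KO. The ZT12 A libraries, in which many of these genes are high together, enter every one of these values.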

How the data were processed

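Polyadenylated RNA of 24 mouse kidney libraries was analysed, and 20 chromatin contact libraries of the series were not used here. The authors deposited TPM per transcript, made with kallisto 0.42.4 per the submitters' processing notes, which name the builds mm10 and GRCm38. The index and annotation release are not given in the sources used here. TPM is scaled to 1 total in every library and keeps no depth, so no counting interval was computed. All 24 sample columns were used, and 0 others were present. Groups, times and replicate letters came from the labels.

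Transcripts were summed to genes through GENCODE M21 by Ensembl identifier without version. Of 88198 transcripts, 86119 matched, and the 2079 others held 1.35% to 2.24% of TPM per library. The 12874 genes whose mean over the libraries reached 1 TPM were tested as log2(TPM + 0.1), a scale that understates changes of low genes, in limma 3.58.1 with R 4.3.3 (eBayes with trend and robust options, Benjamini-Hochberg over all genes). Rhythm was the moderated F test of the cosine and sine terms (period 24 h) of 1 genotype, both genotypes sharing the gene's spread, and the difference in rhythm that of the genotype difference in both. The level test was KO minus WT with time as a 6-level factor. The scripts were tested on simulated data. Alternatives changed the pseudocount, filter, scaling, model and libraries. The 10 genes, the other lists (receptor machinery, other receptor targets, metal handling, clock comparators and marker lists) and the tests were chosen with earlier results of these data known. Named outside the 10 are Arntl, Dbp and Nr1d1, up to 3 genes per pathway list with the smallest p for rhythm in KO and for the difference in rhythm, and the gene of most similar profile to each of the 10. Nr3c2, H6pd, Sgk1, Cry1, Ddx3y, Kap, Aqp2, Ptprc and Pck1 were named after their values were seen.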

Additional observations from a re-analysis of the deposited data

Results flagged for a closer look

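Among the 10 genes and those named outside them by list or profile, 3 had a rhythm that differed by the test of the difference itself. Not counted here are the clock comparators Per3, Tef and Nfil3, which also passed (adjusted p = 5.87e-05, 0.000163 and 4.39e-06). Neither is 1 of the 10 kidney markers, which passed as well. For Arntl the adjusted p of the difference was 1.04e-09, with a peak-to-trough of 4.99 in WT and 0.20 in KO. For Dbp it was 1.51e-09, with 6.04 in WT and 0.63 in KO. Both stayed past the threshold in all 35 alternatives run. For Pdk4 it was 0.041, with 0.77 in WT and 3.25 in KO, so this target of the receptor had its larger rhythm in KO. Pdk4 stayed past the threshold in 15 of 35 alternatives, with adjusted p from 0.0213 to 0.214, and in 9 of the 24 that left out 1 library. The 15 that lost it left out a WT library of ZT4, ZT8, ZT12 or ZT16, or KO ZT0 A or B, KO ZT4 B, KO ZT8 A or B, KO ZT12 A, or KO ZT20 A (adjusted p up to 0.09). None of the 10 genes was among the 3. Without the library labelled KO ZT4 A, Nr1d1 (adjusted p = 9.28e-06) and Hsd11b2 (adjusted p = 0.0444) passed too.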

How the results depend on the processing

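Over the 10 genes, 4 tests and all alternatives, 1412 results were recomputed, and no called one changed direction, 38 lost the threshold and 12 gained it. Differences in peak-to-trough that were never past the threshold changed sign in 14 cases, for Zbtb16 (0.13, from -0.59 to 0.97), Klf9 (0.09, from -0.04 to 0.28), Cebpd (-0.18, up to 0.01) and Nr3c1 (0.07, down to -0.01). The count of genes different in level, 5, was 3 with no filter and 3 with no time in the model, and 3 to 7 when 1 library was left out (3 without WT ZT0 A or B, KO ZT0 B, KO ZT8 A or KO ZT20 A). The count rhythmic in KO, 1, was 0 with time as a 6-level factor, 0 in the fit of KO alone and 0 with all 4 ZT12 libraries left out, when all-gene calls went from 468 to 28, 12 and 221 (an alternative chosen after seeing the data, as were those without the 2 libraries that stand apart and without both ZT12 A libraries), and 0 to 1 when 1 library was left out (0 without KO ZT0 A or B or KO ZT12 B). The count rhythmic in WT, 3, was 1 with time as a 6-level factor, which leaves Tsc22d3 (all-gene calls from 1761 to 576), and 3 in every fit without 1 library. The count different in rhythm was 0 throughout. The causes were not tested. Hsd11b1, Fkbp5 and Mt1 kept their level calls in all 35 alternatives. With a replicate block the counts were 3 in WT, 1 in KO, 0 different in rhythm and 6 in level, Zbtb16 being added (adjusted p = 0.0498, with 0.00354 to 0.13 over its alternatives). The labels give the letters no meaning. Over 66 pairs of groups, deviations of same-lettered libraries had r from -0.323 to 0.338 (median 0.0223), with 21 pairs over 0.1. Single genes did follow the letter: in WT, the leukocyte marker Ptprc was lower in A than in B at every time. Pck1, of the other receptor targets, was higher in A than in B at every time in WT. A range of r over all genes cannot tell whether the letters mark something shared. TPM gives no depth, so how much of the spread of low genes such as Zbtb16 is counting error is unknown.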
